A study of Neurospora crassa with 4 samples.

Results

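The wall synthases of *Neurospora crassa* examined here are 8 genes, chosen by locus tag from the 7793 genes measured. They comprise 7 chitin synthases (*chs-1* to *chs-7*) and the catalytic β-1,3-glucan synthase, named *fks* here and listed as *do* with the synonym *fks* in the RefSeq annotation. Transcript levels were measured by 3′ End Sequencing, whose reads lie at the 3′ end of an mRNA, in 2 ΔCFIm and 2 control cultures. The ΔCFIm strain (strain 2029) carries hygromycin resistance cassettes (hphR) in place of *cpsf5* (NCU09014) and *cpsf6* (NCU02152), the subunits of the CFIm complex that guides poly(A) site choice. The control (strain 1785-1, labelled MAT A) has no deletion named at either locus. Both strains carry the same luciferase reporter with a barR marker at *csr-1* (csr-1::cbox-luciferase::barR). Each genotype is represented by a single strain. Cultures started from conidia grew under constant light on cellophane over agar, at 25°C and for 72 hours, on high nutrient medium (glucose at 0.25% and arginine at 0.17% by weight), and the harvest held mycelium and conidia together. In such bulk tissue, a lower level per cell and fewer cells that express a gene cannot be told apart.

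The fungal wall is a network of chitin and β-1,3-glucan to which other glucans and proteins are attached. Both polymers are made at the plasma membrane by enzymes that arrive in vesicles, and in growing hyphae these vesicles gather at the tip in the Spitzenkörper. Chitin synthases join N-acetylglucosamine units and fall into classes, of which *chs-3*, *chs-2*, *chs-1*, *chs-4*, *chs-5*, *chs-6* and *chs-7* stand for classes I, II, III, IV, V, VI and VII. Classes V and VII are set apart by a myosin motor-like domain at the amino end of the protein. The glucan synthase FKS spans the membrane and extrudes β-1,3-glucan into the wall.

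The libraries held between 5572762 and 6053869 reads counted on genes. The deleted gene *cpsf5* had 2.96 and 0 normalized counts in ΔCFIm, against 214 and 192 in controls, and *cpsf6* had 25.7 and 26.0 in ΔCFIm, against 141 and 160 in controls. The mating-type gene *matA-1* had 0 reads in both ΔCFIm libraries, against 145 and 166 reads in controls, so an effect of mating type and one of the deletions cannot be told apart in any comparison below. Duplicate libraries of a genotype differed by more than sampling noise, by a chi-square per degree of freedom of 27.0 between the ΔCFIm libraries and of 10.02 between the controls. Of 6949 genes tested with limma, 556 (8.0%) passed the threshold of an adjusted p of 0.05, with 321 higher (4.62%) and 235 lower (3.38%) in ΔCFIm. The share that passed was 12.8% with the replicate number as a block, 10.4% with edgeR and 7.25% with DESeq2.

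Of the 8 synthases, only *chs-5* passed the limma threshold, and it was lower in ΔCFIm. The other 6 tested synthases did not pass, and *chs-6* was too low to be tested. A count of 1 in 7 is to be read against the 8.0% of all tested genes, and nothing follows from it for the group as a whole. The median log2 fold change of the 7 tested synthases was -0.07, against -0.01 for all tested genes. In the plot of the 8 genes by library, the *chs-5* points of the genotypes stand apart while those of most other synthases lie together.

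**Figure D1:**
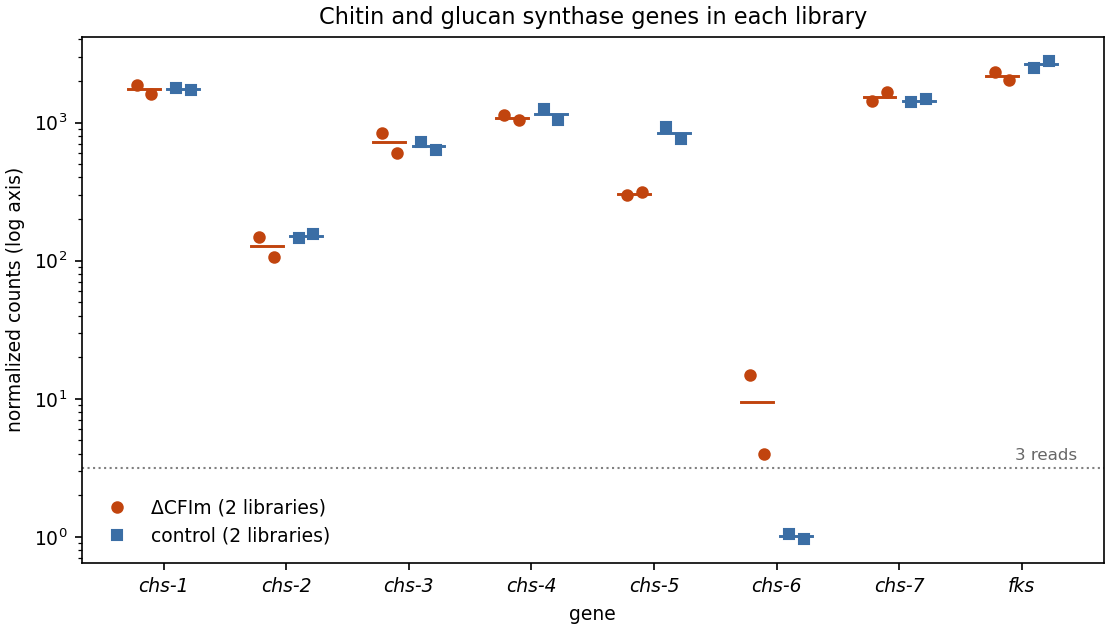
Normalized counts (log axis) of the 8 wall synthase genes in each ΔCFIm library (circles) and each control library (squares), with a bar at the mean of each genotype and a dotted line at the value of 3 reads. For *chs-5* the ΔCFIm libraries lie at 297 and 315 normalized counts and the controls at 924 and 757, and for *chs-6* both control libraries lie under the dotted line.

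*chs-5* (NCU04352, linkage group IV, 3672145 to 3678922 in NC12) encodes the class V enzyme with the myosin motor-like domain. Its level was 297 normalized counts in ΔCFIm replicate 1 and 315 in replicate 2, against 924 and 757 in the controls. Every ΔCFIm library was therefore below every control library, a pattern shared by 26.5% of tested genes. The ΔCFIm duplicates lay closer together than the controls. The means were 306 ± 12.1 in ΔCFIm and 841 ± 118 in controls (SD, N = 2), so ΔCFIm held 36.4% of the control level. The limma estimate was a log2 fold change of -1.45 (SE 0.18, limma adjusted p = 0.000304), and its 95% interval ran from -1.83 to -1.06, or a 2.09-fold to 3.56-fold lower level in ΔCFIm. Of all tested genes, 50 had a lower log2 fold change. With each library left out in turn the value stayed between -1.59 and -1.30, and the gene passed under all 14 alternative settings, with adjusted p between 4.33e-09 and 0.00751.

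The values of *chs-5* rest on 301 and 315 reads in ΔCFIm and on 880 and 783 reads in controls, and no annotated gene overlaps it. The nearest annotated gene on the side of lower coordinates, NCU11050, lies 261 bases away and had 84.0 and 39.9 normalized counts in ΔCFIm, against 70.4 and 49.3 in controls. It lies on the side of the 3′ end of *chs-5*, which the study places on the minus strand. The NCU11050 libraries of the genotypes overlapped, and the log2 difference was -0.02 (SE 0.34, limma adjusted p = 0.978). Poly(A) positions were not analysed here, and the part of reads beyond an annotated gene end in these values was not tested.

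*chs-7* (NCU04350, linkage group IV, 3683097 to 3689591) encodes the other synthase with a myosin motor-like domain and lies 4174 bases from *chs-5*, with NCU04351 between them. It had 1423 and 1654 normalized counts in ΔCFIm, against 1406 and 1469 in controls. The genotypes overlapped, with ΔCFIm replicate 1 between the controls and ΔCFIm replicate 2 above them. On the log2 scale the difference was 0.09 (SE 0.17, limma adjusted p = 0.795), with a 95% interval of 0.828 to 1.38 for the fold. Within a library, the number of *chs-5* reads per *chs-7* read was 0.209 and 0.190 in ΔCFIm (exact 95% counting intervals 0.184 to 0.237 and 0.168 to 0.215), against 0.657 and 0.515 in controls (0.603 to 0.716 and 0.472 to 0.562). Counting intervals leave out the spread between cultures, and those of the control duplicates did not overlap each other. The log2 ratio of *chs-5* to *chs-7* differed by -1.54 between ΔCFIm and control. An exact two-sided permutation test of 2 libraries against 2 gave p = 0.333, the smallest it can give, so this test could not call any difference between the responses of both genes. The same p was found for the ratio of *chs-5* to each of the 6 other tested synthases, *chs-7* among them, where the genotypes did not overlap and the log2 ratio differed by -1.16 to -1.54. All 6 ratios share *chs-5* as a term, so they repeat its difference and are not separate results.

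**Figure D2:**
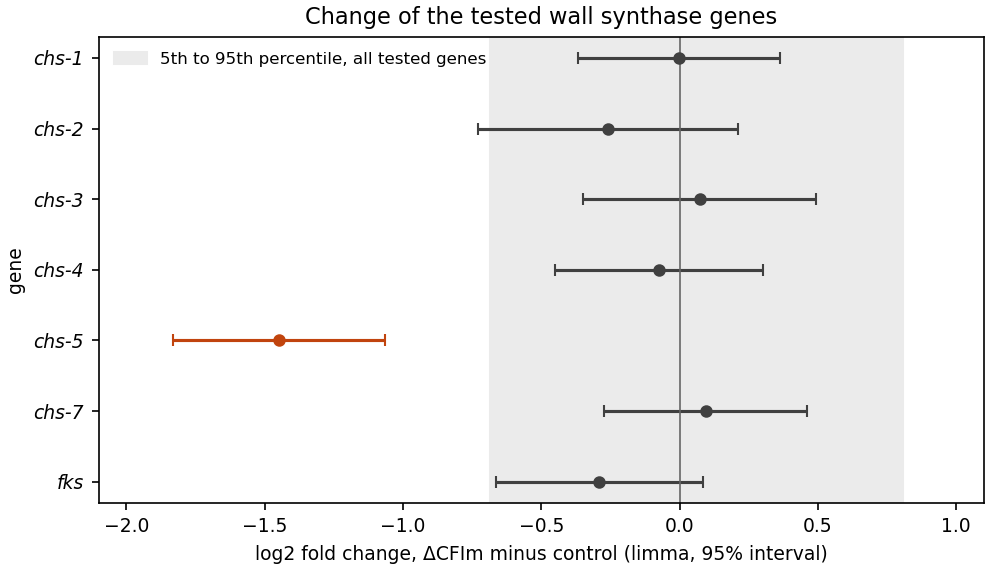
Log2 fold change between ΔCFIm and control (limma, with 95% interval) of the 7 tested wall synthase genes, with the range from the 5th to the 95th percentile of all tested genes shaded. The interval of *chs-5*, from -1.83 to -1.06, lies outside the shaded range of -0.68 to 0.81, and the intervals of the other 6 genes include 0.

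*chs-1* (NCU03611, linkage group V, 1835177 to 1839458), the class III enzyme, was the most abundant chitin synthase transcript in 3 of the 4 libraries. It had 1867 and 1616 normalized counts in ΔCFIm, against 1770 and 1708 in controls, and the control values lay inside the ΔCFIm range. The log2 fold change was -0.0014 (SE 0.17, limma adjusted p = 0.996), with a 95% interval of 0.776 to 1.29 for the fold. *chs-1* also belongs to the study's list of genes whose predominant poly(A) peak moved in ΔCFIm.

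*chs-4* (NCU09324, linkage group I, 4237057 to 4241723) encodes the class IV enzyme. It had 1133 and 1037 normalized counts in ΔCFIm, against 1251 and 1040 in controls. The genotypes overlapped. The fitted log2 fold change was -0.07 (SE 0.17, limma adjusted p = 0.847), with a 95% interval of 0.733 to 1.23 for the fold.

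*chs-3* (NCU04251, linkage group V, 5359920 to 5364389), of class I, had 842 and 602 normalized counts in ΔCFIm, against 724 and 633 in controls. The ΔCFIm duplicates differed 1.4-fold and enclosed both controls. Its log2 fold change was 0.07 (SE 0.19, limma adjusted p = 0.866), with a 95% interval of 0.786 to 1.41 for the fold.

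*chs-2* (NCU05239, linkage group IV, 5644611 to 5649671), of class II, was the least abundant of the tested synthases, with 148 and 107 normalized counts in ΔCFIm, against 146 and 156 in controls. ΔCFIm replicate 1 lay between the controls and ΔCFIm replicate 2 lay below them. Its log2 fold change was -0.26 (SE 0.22, limma adjusted p = 0.529), with a 95% interval of 0.604 to 1.16 for the fold. Without ΔCFIm replicate 1 it was -0.49 and without ΔCFIm replicate 2 it was -0.02, so the size of the difference depended on 1 library.

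*chs-6* (NCU05268, linkage group IV, 5526379 to 5529412), of class VI, was barely detected. It had 15 and 4 reads in ΔCFIm, against 1 read in each control library, where 3 reads were taken as the floor. Its mean over the libraries was below the minimum of 10 normalized counts, so it did not enter the test. Over both libraries of a genotype, the ratio of ΔCFIm to control reads, scaled to library totals, was 9.37, with an exact 95% counting interval of 2.26 to 83.0. Most of these reads came from ΔCFIm replicate 1. With ΔCFIm replicate 2 alone, the ratio was 3.97 with an interval of 0.569 to 43.9, which includes equal levels. Such intervals treat reads as independent, which PCR copies of 1 molecule are not, and they leave out the spread between cultures. With no filter on low values, the log2 fold change of *chs-6* was 2.15 (SE 0.61, limma adjusted p = 0.0835), which did not pass.

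*fks* (NCU06871, linkage group VII, 600470 to 608294), the catalytic subunit of β-1,3-glucan synthase, had the most reads of the 8 genes in every library. It had 2320 and 2016 normalized counts in ΔCFIm, against 2492 and 2805 in controls. Both ΔCFIm libraries were below both controls, a pattern shared by 26.5% of tested genes, and 52.4% did not overlap in either direction. The means were 2168 ± 215 in ΔCFIm and 2648 ± 221 in controls (SD, N = 2). The log2 fold change was -0.29 (SE 0.17, limma adjusted p = 0.353), with a 95% interval of 0.631 to 1.06 for the fold. It did not pass the threshold under any of the 14 alternatives.

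The order of the levels was then compared between genotypes. As reads lie at the 3′ end of an mRNA, levels were not divided by gene length, although reads beyond a gene's annotated end can lower its count. Reads can include PCR copies, so the levels are not counts of molecules. In ΔCFIm the mean normalized counts were 2168 for *fks*, 1742 for *chs-1*, 1538 for *chs-7*, 1085 for *chs-4*, 722 for *chs-3*, 306 for *chs-5*, 128 for *chs-2* and 9.41 for *chs-6*. *chs-1* and *chs-7* overlapped between the ΔCFIm libraries, and *chs-7* had the higher value in ΔCFIm replicate 2. In controls the means were 2648 for *fks*, 1739 for *chs-1*, 1437 for *chs-7*, 1146 for *chs-4*, 841 for *chs-5*, 678 for *chs-3*, 151 for *chs-2* and 1.01 for *chs-6*. Here *chs-5* and *chs-3* were neighbours whose means differed by less than the sum of their SDs (118 and 63.9). *chs-5* stood below *chs-3* in both ΔCFIm libraries and above it in both control libraries. Among all tested genes, *fks* lay at the 94.9th percentile of mean level, *chs-5* at the 75.2nd and *chs-2* at the 32.5th.

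*chs-5* made up 5.19% and 5.90% of all chitin synthase reads in ΔCFIm replicates 1 and 2 (Wilson 95% intervals 4.65% to 5.80% and 5.30% to 6.56%). In control replicates 1 and 2 its share was 14.9% and 13.1% (14.0% to 15.8% and 12.3% to 14.0%). The intervals treat reads as independent and leave out the spread between cultures. The 7 chitin synthases summed to 5726 and 5334 normalized counts in ΔCFIm, against 6222 and 5764 in controls. Without *chs-5* the sums were 5428 and 5019 in ΔCFIm, against 5297 and 5007 in controls. The sums of the other 6 genes thus overlapped between genotypes. *chs-1* held 32.6% and 30.3% of the reads in ΔCFIm, against 28.4% and 29.6% in controls, and *chs-7* held 24.8% and 31.0% in ΔCFIm, against 22.6% and 25.5% in controls. The *chs-4* share was 19.8% and 19.4% in ΔCFIm, against 20.1% and 18.0% in controls. Shares within a library are tied, so a lower *chs-5* share raises those of the other genes without a change in their levels.

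**Figure D3:**
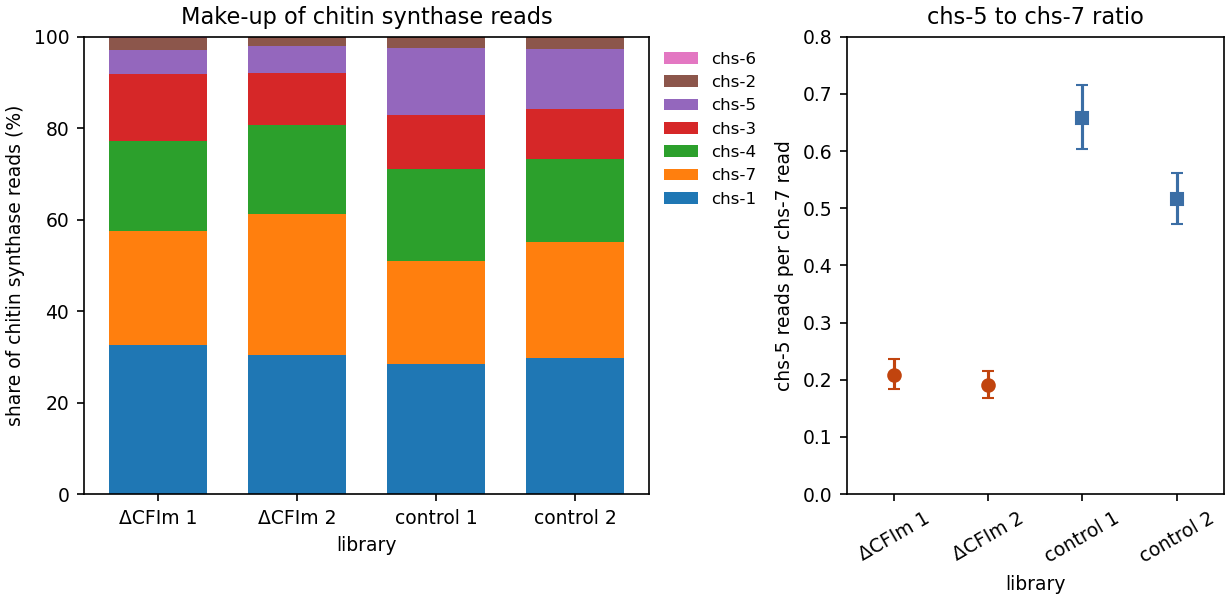
Left, the share of each chitin synthase in all chitin synthase reads of a library (%), and right, the number of *chs-5* reads per *chs-7* read with exact 95% counting intervals. Such intervals leave out the spread between cultures. The *chs-5* share is 5.19% and 5.90% in ΔCFIm and 14.9% and 13.1% in controls, and the ratio is 0.209 and 0.190 in ΔCFIm and 0.657 and 0.515 in controls.

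Among all tested genes, the 3 outside the synthases whose centred log2 values over the 4 libraries lay nearest to those of *chs-5* were NCU03840, NCU07474 and NCU08756 (Euclidean distances of 0.0580, 0.0934 and 0.133 on the log2 scale). NCU03840 had 68.2 and 73.9 normalized counts in ΔCFIm, against 222 and 185 in controls. NCU07474 had 463 and 515 in ΔCFIm, against 1383 and 1201 in controls. NCU08756 had 5.93 and 5.99 in ΔCFIm, against 18.9 and 14.5 in controls, which are only a few reads. With 4 libraries in 2 genotypes, such nearness describes a shared difference in size and little else.

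**Figure D4:**
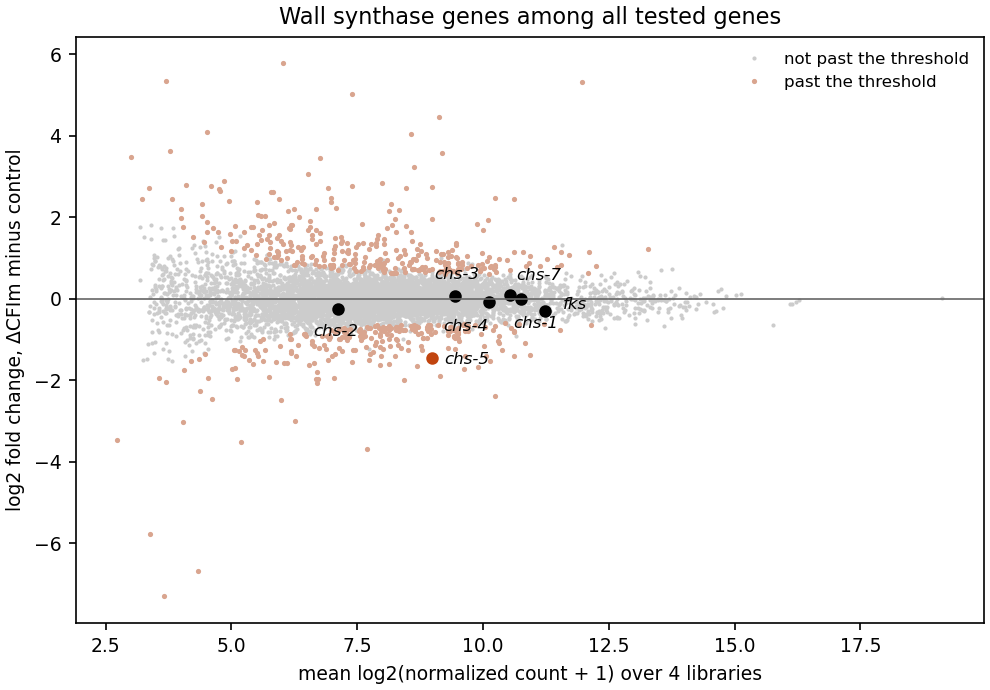
Log2 fold change between ΔCFIm and control against mean log2(normalized count + 1) for each of the 6949 tested genes (small points, orange where past the limma threshold), with the 7 tested wall synthases as large named points. *chs-5*, at -1.45, lies among the genes past the threshold, and the other 6 synthases lie between -0.29 and 0.09 within the main cloud.

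Other genes of the wall were examined as 4 lists chosen by symbol or locus tag. Of 32 tested wall genes outside the synthases, 4 rose and 2 fell in ΔCFIm, against 4.62% and 3.38% of all tested genes. Together they made up 18.8%, against 8.0% of all tested genes. The lists were chosen with earlier results of these data known, so nothing follows from this share for wall genes as a group. In the list for glucan synthesis, 1 of 4 genes passed and it fell. This was *cot-2* (NCU04189, synonym *gs-1*, linkage group V, 5143236 to 5146931), which encodes a protein required for β-1,3-glucan synthase activity. It had 488 and 428 normalized counts in ΔCFIm, against 1103 and 1035 in controls. The genotypes were far apart relative to the spread of the duplicates, and the log2 fold change was -1.22 (SE 0.17, limma adjusted p = 0.000708). It passed under all 14 alternatives, with values between -1.32 and -1.13.

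The α-1,3-glucan synthase gene NCU02478 had 293 and 218 normalized counts in ΔCFIm, against 146 and 167 in controls, and did not pass (log2 fold change 0.69, limma adjusted p = 0.0586). The other α-1,3-glucan synthase gene, NCU08132, had 769 and 1160 in ΔCFIm, against 1070 and 1181 in controls (log2 fold change -0.25, limma adjusted p = 0.512). The median log2 fold change of the 4 genes was -0.13.

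Among genes for chitin breakdown, which belong to the family 18 glycoside hydrolases, 2 of 6 tested genes rose and 0 fell. Of all tested genes, 4.62% rose and 3.38% fell. The median log2 fold change of the 6 was 0.68, against -0.01 for all tested genes. The list matched 10 annotated genes, of which 7 were among the genes measured, and *gh18-1* was too low to be tested. *gh18-6* (NCU05317) had 598 and 456 normalized counts in ΔCFIm, against 232 and 223 in controls (log2 fold change 1.19, SE 0.19, limma adjusted p = 0.00177). *gh18-5* (NCU04554) had 825 and 785 in ΔCFIm, against 495 and 421 in controls (log2 fold change 0.82, SE 0.17, limma adjusted p = 0.0107). Both genes were higher in every ΔCFIm library than in any control. Of tested genes, 52.4% had no overlap in either direction, and this figure includes the 26.5% that were lower in ΔCFIm. Without control replicate 2, *gh18-5* did not pass (log2 fold change 0.70, limma adjusted p = 0.15). The chitinase gene *chit-1* (NCU02184) had 1448 and 904 in ΔCFIm, against 735 and 829 in controls, and did not pass (log2 fold change 0.55, limma adjusted p = 0.142). *gh18-9* (NCU07035) had 86.9 and 63.9 in ΔCFIm, against 25.2 and 47.4 in controls, and did not pass either (log2 fold change 1.09, limma adjusted p = 0.058). The other 2 tested genes had lower means in ΔCFIm and did not pass. *gh18-7* (NCU06020) had 374 and 436 in ΔCFIm, against 501 and 537 in controls (log2 fold change -0.36, limma adjusted p = 0.252), with no overlap between genotypes. *gh18-4* (NCU04883) had 97.8 and 147 in ΔCFIm, against 151 and 143 in controls (log2 fold change -0.29, limma adjusted p = 0.494), and its genotypes overlapped.

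In glucan remodelling, 1 of 5 tested genes rose and 1 fell, against 4.62% and 3.38% of all tested genes. This list matched 6 annotated genes, of which 5 were among the genes measured. *gel-1* (NCU01162), of a family of β-1,3-glucanosyltransferases, had 20.7 and 27.0 normalized counts in ΔCFIm, against 53.6 and 102 in controls (log2 fold change -1.60, SE 0.34, limma adjusted p = 0.0104). The controls differed 1.90-fold, and without control replicate 2 the gene did not pass (log2 fold change -1.15, limma adjusted p = 0.138). *gh16-1* (NCU01353), of glycoside hydrolase family 16, had 401 and 289 in ΔCFIm, against 175 and 173 in controls (log2 fold change 0.96, SE 0.20, limma adjusted p = 0.0103). Of the *gel* family, *gel-3*, *gel-4* and *gel-5* had log2 fold changes of 0.15, -0.27 and 0.14 and did not pass.

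Of 17 genes for wall proteins, 1 rose and 0 fell (5.88% against 8.0% of all tested genes), with a median log2 fold change of -0.09. It was *ncw-5* (NCU00716), a non-anchored cell wall protein, with 2362 and 2303 normalized counts in ΔCFIm, against 1080 and 1012 in controls (log2 fold change 1.16, SE 0.16, limma adjusted p = 0.000762). Since the harvest also held spores, 7 conidiation genes were examined beside these results. Of the 7, 0 passed the limma threshold, against 8.0% of all tested genes. With edgeR and DESeq2 the number was also 0, against 10.4% and 7.25% of all tested genes. Of the 7, 1 (*con-8*) had an unadjusted limma p under 0.05, as did 22.5% of all tested genes. The median log2 fold change of the 7 was 0.01. Values were below 0 for *con-8* (-0.64), *csp-1* (-0.21) and *con-10* (-0.09). They were above 0 for *eas* (0.01), *con-6* (0.08), *ccg-1* (0.12) and *fl* (0.15). Their summed level was 771375 and 791385 normalized counts in ΔCFIm, against 788239 and 804894 in controls, most of it from the hydrophobin gene *eas*, and none of the 7 was at 0 in any library. The spore genes *con-8* and *con-10* spread widely between the ΔCFIm libraries, with 34801 and 57359 for *con-8*, against 64873 and 75140 in controls, and 52848 and 103957 for *con-10*, against 89366 and 69319 in controls. The part of a difference in spore content in the values of *chs-5* was not tested.

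**Figure D5:**
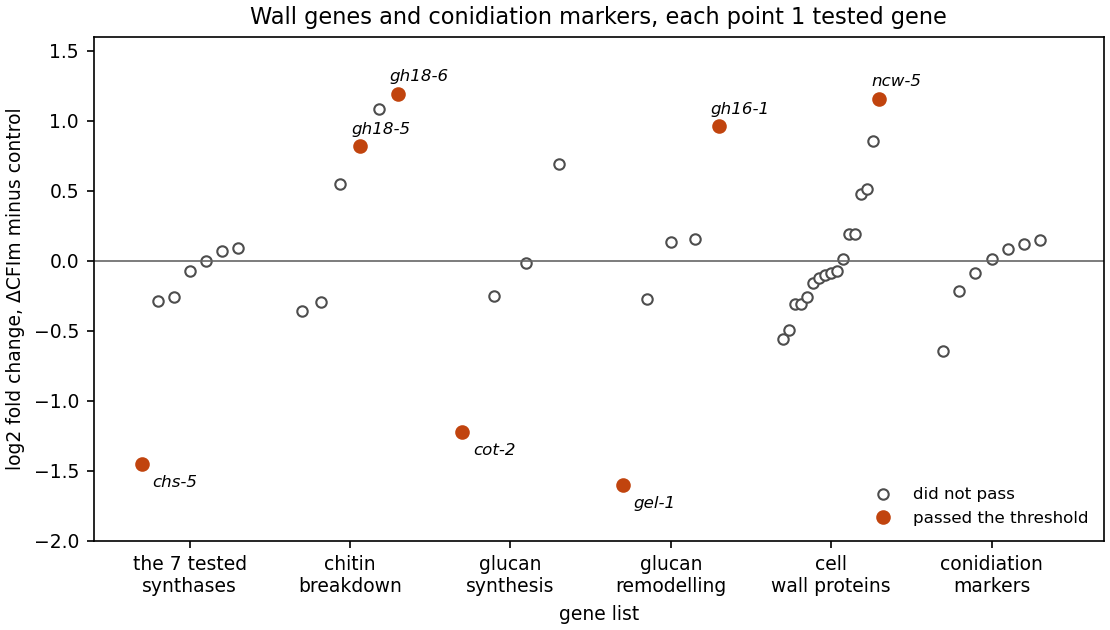
Log2 fold change between ΔCFIm and control of each tested gene (points) in the wall synthases, the 4 other lists of wall genes and the conidiation markers, with genes past the limma threshold filled and named. *chs-5*, *cot-2* and *gel-1* lie below 0 and *gh18-5*, *gh18-6*, *gh16-1* and *ncw-5* above it, and no conidiation marker passed.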

How the data were processed

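QuantSeq 3′ REV libraries (Lexogen) gave strand-specific single-end reads of 75 bp. The authors used STAR for alignment to genome NC12 of strain OR74A (FungiDB version 45) and HTSeq-count for reads per gene, and normalized by library size. All columns sum to the same total. The deposited values are therefore a normalized signal per gene, called normalized counts. The strand setting is not given in the sources used here. Divided by the value of 1 read in its library, 100% of values came out whole (within 0.01), so the reads were recovered.

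Genotypes were compared on log2(normalized count + 1) with limma 3.58.1 in R 4.3.3 (eBayes with a trend, genes with a mean of at least 10, Benjamini-Hochberg adjustment, threshold 0.05), which understates changes of low genes. The study used a test per gene, for which 2 libraries a genotype leave few degrees of freedom. Tests were checked on simulated data with the same spread between duplicates in both genotypes, whereas the measured ΔCFIm duplicates differed more than the controls. The alternatives were pseudocounts of 0.1 and 5, no filter, a mean of at least 50, median-of-ratios or quantile scaling, a replicate block, edgeR 4.0.16 and DESeq2 1.42.0 on the reads, eBayes with no trend, each library left out, and a threshold of 0.1 for the count of synthases.

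The synthases and lists were chosen with earlier results of these data known. Named were the 8 synthases, *cpsf5*, *cpsf6*, *matA-1*, the genes of each list past the threshold and the 3 nearest to *chs-5*. The other list genes, named with values for their role in the wall or in conidiation, and NCU11050 were added to this rule with their values known. Symbols and coordinates come from RefSeq NC12, which matched 7792 of 7793 genes. As it gives no product text, 2 lists fixed by product (chitin precursor enzymes, chitin synthase partners) found no gene. Of the glucan synthesis list, 1 gene is counted but not reported by name here. The replicates are separate plate cultures of the same strain, as the study describes them. The p-values therefore measure the spread between cultures of 1 strain a genotype. The limma fit shares this spread across genes, so the SE of a gene does not rest on its own values alone.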

Additional observations from a re-analysis of the deposited data

How the results depend on the processing

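*chs-5* was lower and passed under all 14 alternatives, and the count of synthases past the threshold stayed at 1 in all of them and at an adjusted p threshold of 0.1. The number of changed genes over the whole table was 890 with the replicate number as a block, against 556 without it and including all 556, and it ranged from 333 (without control replicate 2) to 1132 (without ΔCFIm replicate 2) with 1 library left out, where a lone library was assumed to vary like the other genotype. Same-numbered libraries deviated together only weakly (Pearson's r = 0.137, Spearman's rho = 0.160 across 6949 genes, which are not independent), and no source says that a number pairs cultures. The block changed no call among the synthases.

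The sign of 4 synthases that did not pass was not stable. The log2 fold change of *chs-1* was 0.0017 with edgeR and 0.0018 with DESeq2, against -0.0014 with limma. With 1 library left out it ranged from -0.11 to 0.10 for *chs-1*, from -0.17 to 0.31 for *chs-3*, from -0.21 to 0.059 for *chs-4* and from -0.014 to 0.20 for *chs-7*. *chs-2* and *fks* stayed below 0. The depth limits *chs-6*, whose control libraries had 1 read each.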
